A study of Mus musculus with 6 samples.

Results

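Messenger RNA levels of 9 genes that write, remove or read DNA methylation were described in the prefrontal cortex of mice raised with or without early-life stress (ELS). The set was chosen by gene name and holds the methyltransferases Dnmt1 and Dnmt3a, the erasers Tet1, Tet2, Tet3 and Gadd45b, and the methyl-CpG-binding domain genes Mbd1, Mbd2 and Mbd3. All 9 were among the 22000 gene symbols of the count table, and all 9 passed the low-expression filter that left 13185 genes for testing. That filter required a level of at least 1 CPM (read counts scaled to a common library size) in all 3 mice of either group.

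DNA methylation in mammals lies mostly on the cytosine of CpG dinucleotides. DNMT1 copies the mark to the new strand after DNA replication, whereas DNMT3A places it on unmethylated DNA and remains expressed in neurons after cell division has ended. TET enzymes oxidize 5-methylcytosine to 5-hydroxymethylcytosine, which is abundant in brain, and GADD45B is an activity-induced protein linked to active demethylation in neurons. Most proteins of the MBD family bind methylated DNA and recruit corepressors, and MBD2 and MBD3 belong to alternative forms of the NuRD nucleosome remodelling and deacetylase complex.

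RNA-seq counts came from 3 control and 3 ELS mice, all C57BL/6N males of 9 weeks according to the labels. The ELS mice were housed alone from weaning at postnatal day 21 (P21) until P50, the age at which behavioural tests began, and stayed in that housing until dissection at P67. Control mice lived 4 males to a cage. The cages of ELS mice had a filter cap and those of controls did not, so isolation, cage density and the cap cannot be told apart. Mice of both groups were drawn from litters of the same mother, and are separate animals but not unrelated ones.

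The libraries held 28405795 to 35241743 reads assigned to genes, and every ELS library (32359353 to 35241743) was deeper than every control library (28405795 to 31061421). The 9 genes together took 10549 to 13673 reads per mouse. Neuronal markers were abundant, with Slc17a7, the vesicular glutamate transporter of cortical excitatory neurons, at 1605 CPM in control and 1600 CPM in ELS mice. Only 1 of 5 choroid plexus markers passed the filter. Summed levels of 7 striatal markers stood apart in 1 mouse of each group, at 352 CPM in Control 3 and 331 CPM in ELS 1 against 195 to 238 CPM in the other 4 mice. Since these are tissue homogenates, fewer cells of a type and less RNA per cell cannot be told apart in any value that follows.

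None of the 9 genes differed between ELS and control mice by edgeR's quasi-likelihood test, in which a gene was called at a Benjamini-Hochberg adjusted p under 0.05 together with an absolute log2 fold change above 0.3. The adjusted p rounded to 1 for every one of them, and the call rate over all tested genes was itself 0.0152% (2 of 13185). At an unadjusted p under 0.05, 0 of the 9 genes were counted, beside 4.23% of all tested genes. DESeq2, limma-voom and edgeR's likelihood ratio test also called 0 of the 9. The 3 ELS values overlapped the 3 control values for each of the 9 genes, whereas 8.28% of all genes had groups that did not overlap (3.81% with ELS higher and 4.47% with ELS lower). Log2 fold changes of ELS over control lay between -0.15 and 0.09, so 0 of the 9 exceeded 0.3 in size, as 4.64% of all genes did. They were above 0 for 4 genes and below 0 for 5, with a median of -0.06, beside 47.5% above 0 and a median of -0.00 over all genes.

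**Figure D1:**
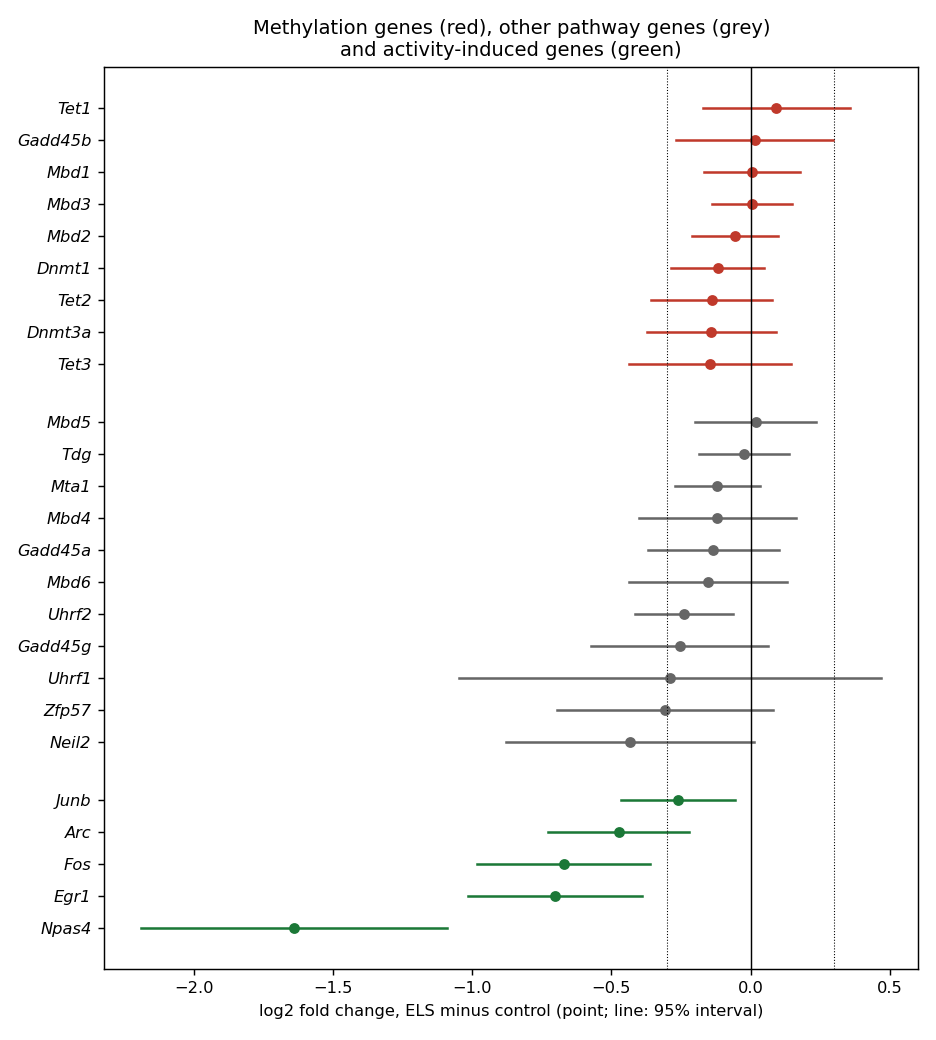
Log2 fold changes of ELS over control (x axis, points) with 95% intervals (lines) from the quasi-likelihood fit, for the 9 methylation genes in red, named genes of the machinery in grey and activity-induced genes in green, with dotted lines at the fold threshold of 0.3 in either direction. Every red interval includes 0, and the widest belongs to Tet3 (-0.44 to 0.15).

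The starts of these genes differ widely in content of CpG, on which the DNMT and TET enzymes act, and 4 of them are shown for that reason. RefSeq promoter windows of 300 bases (250 before to 50 after a start, GRCm38.p6) were found for 7 of the 9 genes, in 11 windows. Mbd1 and Mbd2 are named only. The median over 32851 windows of 27025 genes was 7 CpG, and 10 of the 11 windows held more. Tet2 had 57 CpG in its window, at percentile 99.8 of all windows, and Dnmt3a had 46, 47 and 18 in its 3 windows. Dnmt1 had 2 CpG at its outermost start and 12 and 33 at its other starts, while Gadd45b had 24, Tet3 22, Mbd3 22 and Tet1 17. The bases before each start that lie outside annotated exons are given 5′ to 3′ on the strand of the gene, with each CpG in capitals. They are Dnmt1 at chr9:20959889-20960138 on the minus strand (2 CpG in 250 bases), Dnmt3a at chr12:3806730-3806979 on the plus strand (38 in 250), Tet2 at chr3:133544391-133544640 on the minus strand (51 in 250) and Gadd45b at chr10:80929841-80930072 on the plus strand (21 in 232). The Dnmt1 stretch shown is that of the outermost start (percentile 14.1 of all windows). The Dnmt1 start with 33 CpG (percentile 91.4) left no bases outside annotated exons. Which start was used in these mice was not measured, nor was methylation of these bases.
Dnmt1: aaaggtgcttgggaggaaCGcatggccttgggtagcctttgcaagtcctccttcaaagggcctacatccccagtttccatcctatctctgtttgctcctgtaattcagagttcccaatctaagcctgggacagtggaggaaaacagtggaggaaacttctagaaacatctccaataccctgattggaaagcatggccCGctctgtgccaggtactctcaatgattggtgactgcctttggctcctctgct
Dnmt3a: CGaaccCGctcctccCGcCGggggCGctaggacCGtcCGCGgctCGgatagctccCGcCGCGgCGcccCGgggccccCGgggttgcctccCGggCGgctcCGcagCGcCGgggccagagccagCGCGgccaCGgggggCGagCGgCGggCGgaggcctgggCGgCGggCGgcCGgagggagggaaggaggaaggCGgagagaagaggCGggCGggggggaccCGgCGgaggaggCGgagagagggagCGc
Tet2: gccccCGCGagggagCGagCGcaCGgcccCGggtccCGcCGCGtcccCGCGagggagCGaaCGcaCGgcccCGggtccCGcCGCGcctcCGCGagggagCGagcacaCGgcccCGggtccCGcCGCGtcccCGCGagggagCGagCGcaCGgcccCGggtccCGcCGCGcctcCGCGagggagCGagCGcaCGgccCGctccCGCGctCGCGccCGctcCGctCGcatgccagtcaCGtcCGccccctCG
Gadd45b: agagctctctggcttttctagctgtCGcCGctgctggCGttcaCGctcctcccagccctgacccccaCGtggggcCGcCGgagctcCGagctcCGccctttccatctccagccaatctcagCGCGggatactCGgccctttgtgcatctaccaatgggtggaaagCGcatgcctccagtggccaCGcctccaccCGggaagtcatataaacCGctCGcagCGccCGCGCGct

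Per kilobase of exon, the 9 genes spanned a wide range of levels, from Mbd3 at 46.1 CPM per kb (SD 1.59 over the 6 mice) to Tet1 at 0.737 CPM per kb (SD 0.0792), a ratio of 62.6. Between them came Mbd2 at 13.0 CPM per kb, Gadd45b at 9.38, Dnmt1 at 5.67, Mbd1 at 5.25, Dnmt3a at 3.77, Tet3 at 3.18 and Tet2 at 2.36. The 3 TET genes had the lowest levels. Of the 8 pairs of neighbours in this order, 7 kept the same order in 6 of 6 mice. This is a description, since the order was taken from the mean of the same mice. Dnmt1 and Mbd1 could not be ordered, since Dnmt1 was higher in 5 of 6 mice by 0.11 on the log2 scale on average. The order depends on the length used: with coding length in place of exon length Dnmt3a took rank 4 and Dnmt1 rank 7, and 5 pairs kept their order in all mice.

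**Figure D2:**
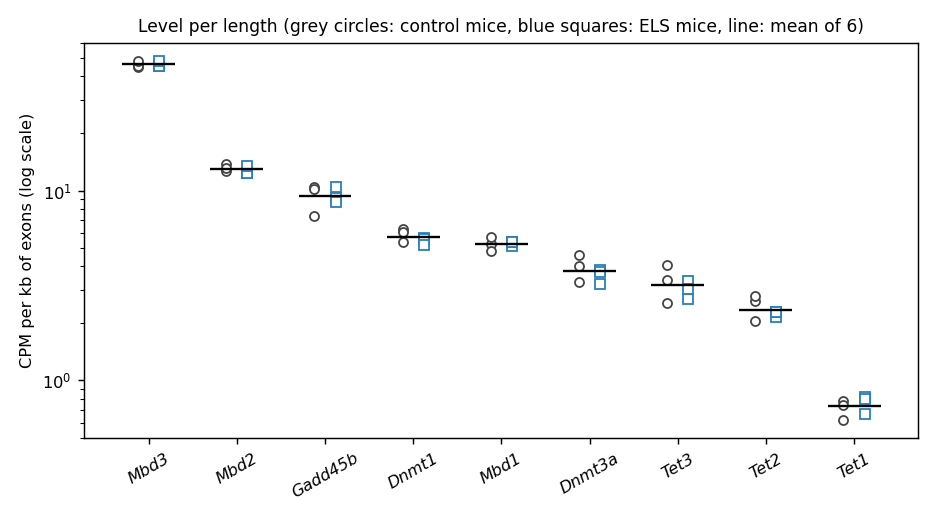
Levels of the 9 genes in CPM per kb of exon (y axis, log scale), with grey circles for the 3 control mice, blue squares for the 3 ELS mice and lines for the mean of the 6. Mbd3 stands highest (46.1) and Tet1 lowest (0.737), and the groups overlap at each gene.

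Among the writers, Dnmt1, the maintenance methyltransferase (ENSMUSG00000004099; GRCm38 chr9:20907209-20959888, minus strand), stood at 46.3, 44.7 and 39.7 CPM in Control 1, 2 and 3 and at 41.5, 40.8 and 38.2 CPM in ELS 1, 2 and 3. The upper ELS values lay between the control values, so the groups overlapped. Mean levels were 43.6 ± 3.43 CPM for the controls and 40.1 ± 1.74 CPM after ELS (SD over 3 mice each). The edgeR log2 fold change was -0.12 (SE 0.0777, 95% interval -0.29 to 0.05, unadjusted p = 0.15), which as a fold is 0.921 with an interval of 0.819 to 1.03.

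Dnmt3a, which encodes the de novo methyltransferase of mature neurons (ENSMUSG00000020661; chr12:3806007-3914443, plus strand), was measured at 66.9, 75.8 and 54.9 CPM in the control mice and at 53.7, 63.6 and 61.8 CPM in the ELS mice, in the order of their numbers. Control 2 was the highest mouse, and Control 3 lay next to ELS 1 at the bottom. Means were 65.9 ± 10.5 and 59.7 ± 5.31 CPM (SD over 3 mice each), and edgeR gave a log2 fold change of -0.14 (SE 0.107, 95% interval -0.37 to 0.09, unadjusted p = 0.209). Exons of the antisense gene Dnmt3aos overlap 0.799% of the exonic bases of Dnmt3a. Within each mouse the count ratio of Dnmt3a to Dnmt1 differed between the groups by -0.02 on the log2 scale (2-sided exact permutation p = 1).

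Tet1 (ENSMUSG00000047146; chr10:62804570-62908996, minus strand), the least abundant of the 3 TET genes, stood at 12.1, 11.5 and 9.54 CPM in control and at 10.3, 12.6 and 12.4 CPM in ELS mice. The lowest value was in Control 3, followed by ELS 1, and the ELS mean of 11.7 ± 1.27 CPM exceeded the control mean of 11.0 ± 1.32 CPM (SD over 3 mice each) by less than either SD. The log2 fold change was 0.09 (SE 0.121, 95% interval -0.17 to 0.35, edgeR unadjusted p = 0.465).

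Tet2 (ENSMUSG00000040943; chr3:133463679-133545139, minus strand) was at 44.1, 46.7 and 34.5 CPM in the control mice and at 36.4, 38.5 and 38.8 CPM in the ELS mice. All 3 ELS values fell in the gap between Control 3 and the other 2 control mice. Its log2 fold change was -0.14 (SE 0.10, 95% interval -0.36 to 0.08, edgeR unadjusted p = 0.185), from means of 41.8 ± 6.41 and 37.9 ± 1.31 CPM (SD over 3 mice each). An antisense gene covers 0.255% of the exonic bases of Tet2.

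Tet3 (ENSMUSG00000034832; chr6:83362373-83459084, minus strand), the most abundant TET gene in these libraries, varied most from mouse to mouse among the 9 genes, with a coefficient of variation of 17.2% over the 6 mice against 3.46% for Mbd3. Control 1, 2 and 3 had 56.3, 68.0 and 42.9 CPM, and ELS 1, 2 and 3 had 45.0, 55.7 and 50.5 CPM. The control values therefore enclosed the ELS values on both sides. The difference of means, 55.8 ± 12.6 against 50.4 ± 5.35 CPM (SD over 3 mice each), gave a log2 fold change of -0.15 (SE 0.134, 95% interval -0.44 to 0.15, edgeR unadjusted p = 0.299).

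The balance between TET genes within a mouse was compared as a log2 ratio of counts. For Tet3 over Tet1 the linear ratios were 4.67, 5.92 and 4.50 in control and 4.37, 4.42 and 4.08 in ELS mice, so every ELS ratio lay below every control ratio. The log2 ratios averaged 2.32 ± 0.215 and 2.10 ± 0.0627 (SD over 3 mice each), a difference of -0.22 with a 2-sided exact permutation p of 0.1, the smallest that 3 against 3 mice can give, and 0.3 after adjustment over the 6 ratios compared. The closest pair of mice from different groups, Control 3 and ELS 2, differed by little (4.50 and 4.42), and without Control 2 the log2 difference between the groups was -0.096. No difference was seen for Tet3 over Tet2 (log2 difference 0.00, exact p = 1).

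Gadd45b, a stress- and activity-inducible gene (ENSMUSG00000015312; chr10:80930073-80932204, plus strand), was at 16.6, 11.7 and 16.2 CPM in Control 1, 2 and 3 and at 14.5, 13.9 and 16.7 CPM in ELS 1, 2 and 3, on 331 to 537 reads. Both the lowest value (Control 2) and the highest (ELS 3) lay outside the other group. Means were 14.8 ± 2.69 and 15.0 ± 1.47 CPM (SD over 3 mice each), and the log2 fold change was 0.01 (SE 0.130, 95% interval -0.27 to 0.30, edgeR unadjusted p = 0.912). As a fold this is 1.01, with an interval of 0.831 to 1.23. The log2 fold change turned sign with 1 mouse left out, to -0.13 without Control 2 and -0.067 without ELS 3.

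Neuronal immediate-early genes, a class in which Gadd45b is often placed, were set beside it as a description. All 9 genes of a list of activity-regulated transcripts, which holds genes that were singled out from these same libraries and so is not independent evidence of its direction, had log2 fold changes below 0 with a median of -0.46. None was called by the quasi-likelihood test, while 8 of the 9 had an unadjusted p under 0.05 (4.23% of all genes) and for 7 of the 9 every ELS value lay below every control value, which held for 4.47% of all genes. Npas4 had a log2 fold change of -1.64 (edgeR adjusted p = 0.111), Egr1 of -0.70 (0.322), Fos of -0.67 (0.374), Arc of -0.47 (0.66) and Junb of -0.26 (1), the last being -0.14 without Control 1. Calls among these 5 genes depended on the method: DESeq2 called Fos (adjusted p = 0.0075), Npas4 (0.0361) and Arc (0.03) among 18 genes in all, edgeR's likelihood ratio test called these 3 and Egr1 (28 in all), and the edgeR fit with the replicate number as a block called Fos (0.00673), Npas4 (0.0101) and Egr1 (0.00223) among 7 genes in all. The 95% intervals of Npas4, Egr1 and Fos lay wholly below that of Gadd45b, while those of Arc and Junb overlapped it, and the difference between Gadd45b and these genes was not tested.

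Gadd45g, a close relative of Gadd45b, had 13.7, 9.63 and 13.5 CPM in control and 11.5, 8.75 and 10.7 CPM in ELS mice, a log2 fold change of -0.25 (edgeR unadjusted p = 0.107) that ran from -0.40 without Control 2 to -0.15 without ELS 2. Counts of Gadd45b over those of Gadd45g were 1.21, 1.22 and 1.20 in control mice and 1.26, 1.58 and 1.55 in ELS mice. All 3 ELS ratios were above all 3 control ratios, and the control ratios differed from one another by far less than the ELS ratios. On the log2 scale the ratio was 0.27 ± 0.0123 and 0.54 ± 0.182 (SD over 3 mice each), a difference of 0.27 (2-sided exact permutation p = 0.1, adjusted 0.3). Gadd45a was at 9.90 ± 0.459 CPM in control and 9.03 ± 0.619 CPM in ELS mice, a log2 fold change of -0.13 that was -0.086 without ELS 2.

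The promoter windows of the activity-regulated genes and of Gadd45b were searched on both strands for the core of the cAMP response element, TGACG, which binds CREB-family factors. All 7 activity-regulated genes with a RefSeq window held it, 1 of the 11 windows of the methylation genes did (that of Tet2), and 20.8% of all windows did. The window of Gadd45b had none, but held 1 E-box (CACGTG, in 7.15% of all windows), 1 GGGCGG (35.7%), 2 CCAAT (37.4%) and 1 TATAAA (13.6%). These matches describe letters in a short window, not bound sites.

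The MBD genes were the steadiest members. Mbd1 (ENSMUSG00000024561) was at 35.1, 38.1 and 32.2 CPM in control and 34.0, 35.9 and 35.8 CPM in ELS mice, with the ELS values inside the control range and a log2 fold change of 0.01 (SE 0.0794, 95% interval -0.17 to 0.18, edgeR unadjusted p = 0.946). Mbd2 (ENSMUSG00000024513) had 40.7, 44.6 and 42.5 CPM in control and 39.7, 40.0 and 43.2 CPM in ELS mice. Its 2 lowest values were in ELS mice and its highest in Control 2, and its log2 fold change was -0.06 (SE 0.0719, 95% interval -0.21 to 0.10, edgeR unadjusted p = 0.447), which ran from -0.097 without ELS 3 to -0.022 without Control 2.

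Mbd3 (ENSMUSG00000035478; chr10:80392539-80399550, minus strand), whose protein binds methylated DNA weakly in mammals and acts as a core NuRD subunit, was at 88.8, 89.7 and 96.0 CPM in control and 89.8, 90.1 and 95.3 CPM in ELS mice. The 3 ELS values lay inside the control range, with means of 91.5 ± 3.93 and 91.8 ± 3.10 CPM (SD over 3 mice each) and a log2 fold change of 0.00 (SE 0.0657, 95% interval -0.14 to 0.15, edgeR unadjusted p = 0.948). Within mice, the balance of Mbd3 to Mbd2 differed by 0.06 on the log2 scale (exact permutation p = 0.3, adjusted 0.6) and that of Mbd2 to Mbd1 by -0.06 (exact permutation p = 0.5, adjusted 0.75).

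**Figure D3:**
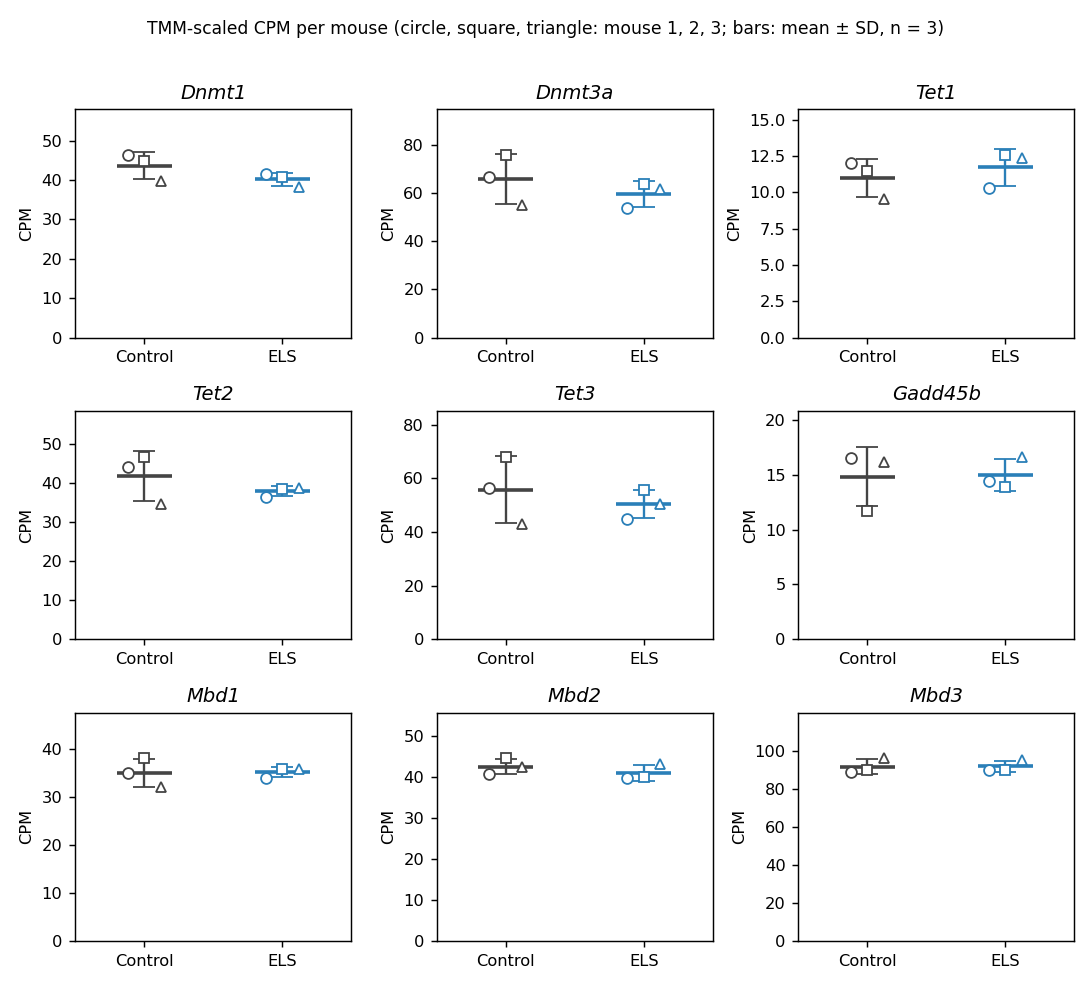
Levels in CPM of each of the 9 genes (y axes from 0) in control (grey) and ELS mice (blue), with a symbol for each mouse number and bars for the mean and SD over 3 mice. The groups overlap in every panel, and Control 3 and ELS 1 are the lowest points for Dnmt3a, Tet1, Tet2, Tet3 and Mbd1.

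The precision of these comparisons can be read from the intervals. Taken over the 9 genes, the 95% intervals ran from a log2 fold change of -0.44 (the lower end for Tet3) to 0.35 (the upper end for Tet1), whereas for Mbd3 they ran from -0.14 to 0.15. Widths were smallest for the MBD genes and Dnmt1 and largest for Tet3 and Gadd45b. The median width over all tested genes was 0.389.

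Mice differed in a way that did not follow the groups. Control 3 and ELS 1 were the 2 lowest mice for Dnmt3a, Tet1, Tet2, Tet3 and Mbd1, and Control 3 was the second lowest for Dnmt1. These were the same 2 mice with the highest summed striatal markers. They also had lower levels of long transcripts in general: among genes of the longest of 5 equal classes of transcript length (5511 to 27908 bp), the median log2 deviation from the mean of the 6 mice was -0.10 in Control 3 and -0.08 in ELS 1, and between -0.00 and 0.07 in the other 4 mice. In the shortest class (231 to 2139 bp) it was 0.11 and 0.04 in these 2 mice. The longest transcripts of Dnmt1, Dnmt3a, Tet1, Tet2 and Tet3 (5870 to 14369 bp) belong to the longest class, that of Mbd1 (3920 bp) to the middle class, and those of Gadd45b, Mbd2 and Mbd3 (1284 to 1953 bp) to the shortest. The part of transcript length and of striatal tissue in the values of these genes was not tested beyond the fits that follow.

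**Figure D4:**
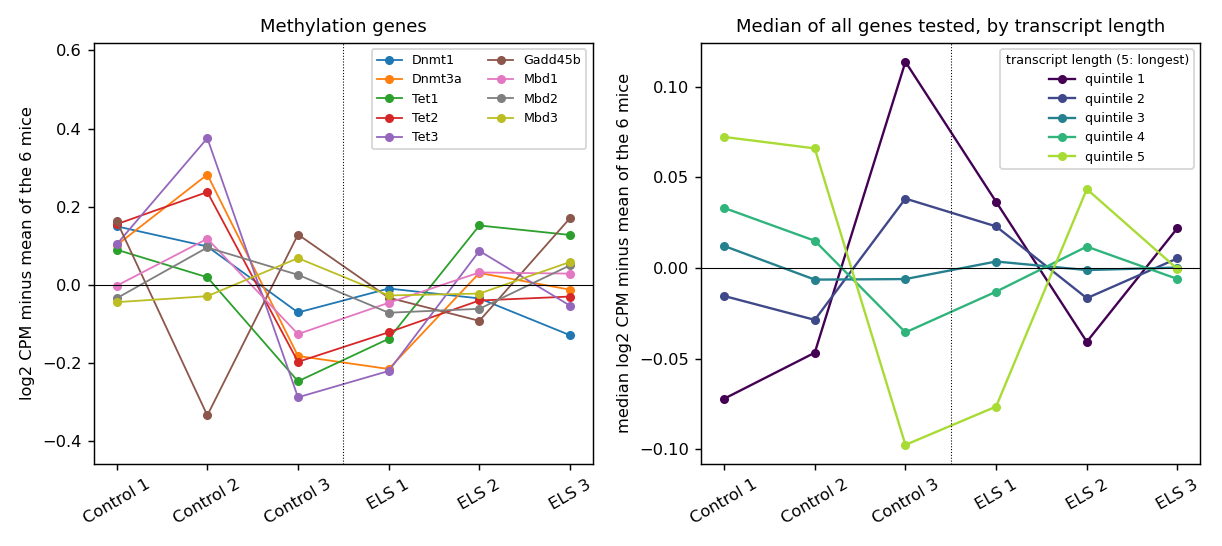
Log2 deviation from the mean of the 6 mice (y axes) in each mouse (x axes), for the 9 genes on the left and as medians over all tested genes in 5 classes of transcript length on the right, where class 5 holds the longest. Lines only join points of one gene or class. Tet3 lies at -0.29 in Control 3, -0.22 in ELS 1 and 0.38 in Control 2, and the longest class is lowest in Control 3 and ELS 1 (-0.10 and -0.08).

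The size of the writer and TET differences rested on single mice, in both directions. Without Control 2, the highest mouse for Dnmt3a, Tet2 and Tet3, the log2 fold changes were -0.029 for Dnmt3a, -0.054 for Tet2 and 0.022 for Tet3, so that of Tet3 turned sign. Without ELS 1 they were -0.073 for Dnmt3a and -0.072 for Tet3, and without Control 1 that of Dnmt1 was -0.072. Without Control 3, edgeR's log2 fold changes were -0.18 for Dnmt1, -0.26 for Dnmt3a, -0.26 for Tet2, -0.30 for Tet3 and -0.0036 for Tet1. Their unadjusted p by edgeR's quasi-likelihood test was 0.0204 for Dnmt1, 0.00558 for Dnmt3a, 0.00196 for Tet2 and 0.00457 for Tet3. None of these was called, the smallest adjusted p being 0.187 for Tet2, and in that fit 11.7% of all 13212 tested genes had an unadjusted p under 0.05 and 29 genes were called. With both Control 3 and ELS 1 left out, the values were -0.20 for Dnmt1, -0.18 for Dnmt3a, -0.23 for Tet2 and -0.22 for Tet3 (smallest edgeR adjusted p among the 9 genes 0.353). These 4 of the 9 genes had an unadjusted p under 0.05 in that fit, beside 8.74% of all genes. When a score of the long-transcript level was added to the model instead, the log2 fold changes were -0.10 for Dnmt1, -0.099 for Dnmt3a, -0.099 for Tet2 and -0.082 for Tet3. In that fit 0 of the 9 genes had an unadjusted p under 0.05, beside 7.62% of all genes, and the smallest edgeR adjusted p among them was 0.79. With the striatal marker level as the covariate it was 0.797, with 0 of the 9 genes beside 7.48% of all.

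Relations between the 9 genes across mice did not pass adjustment. Across the 6 mice, Dnmt3a and Tet3 had a Pearson r of 0.98 (2-sided exact permutation p = 0.00417, adjusted 0.112 over 36 pairs) and a Spearman rho of 0.94 (exact p = 0.0167, adjusted 0.2). The r was 0.98 without the 2 mice farthest from the median of Dnmt3a, which were Control 2 and ELS 1, so Control 3 stayed in. For deviations from the group means it was 0.99. Tet2 and Tet3 had an r of 0.93 (exact permutation p = 0.00833). Of the 36 pairs, 21 had an r above 0, 6 had an unadjusted p under 0.05 and 0 an adjusted p under 0.05. The points share the low values of Control 3 and ELS 1 described above.

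The genes whose deviations from the mean over the 6 mice lay closest to each member were found by the root mean square difference on the log2 scale. For Gadd45b they were Fam204a (0.0330), Rax (0.0351) and Ccbl2 (0.0393), none of them an immediate-early gene of the list used here. With all tested genes to choose from, so short a list could hardly have held any of them, and nothing follows from their absence. Tet3 was nearest to Nktr (0.0308), Tet2 to Safb2 (0.0263) and Tet1 to Grm2 (0.0186), which encodes a metabotropic glutamate receptor. After an unnamed locus, Dnmt3a was nearest to Adarb1 (0.0292), an RNA-editing enzyme gene, and to the kinesin gene Kif21b (0.0301). Dnmt3a itself lay 0.0566 from Tet2 and 0.0644 from Tet3.

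Other genes of the DNA methylation machinery likewise gave no call. Of 47 such genes in 5 lists, 45 passed the filter, 0 were called (0.0152% of all genes) and 1 had an unadjusted p under 0.05 (4.23% of all genes). Groups did not overlap for 3 of the 45 (Uhrf2, Neil2 and Mta1), beside 8.28% of all genes. Log2 fold changes were above 0 for 16 and below 0 for 29, with a median of -0.03. The 29 include Uhrf1, which passed the filter through the control mice alone. DESeq2, limma-voom and edgeR's likelihood ratio test called 0 of them as well. The second de novo methyltransferase gene, Dnmt3b, had 6 to 22 reads per mouse and its cofactor Dnmt3l had 0 to 5, and both fell below the filter.

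The gene with the unadjusted p under 0.05 was Uhrf2, which encodes a RING-finger protein that binds hemimethylated DNA and 5-hydroxymethylcytosine. Its levels were 52.7, 47.3 and 45.8 CPM in control and 41.2, 38.1 and 44.2 CPM in ELS mice. Every ELS value was below every control value, and the means were 48.6 ± 3.66 and 41.2 ± 3.02 CPM (SD over 3 mice each). The log2 fold change was -0.24 (SE 0.081, 95% interval -0.42 to -0.06, edgeR unadjusted p = 0.0113, adjusted p = 0.97), and it stayed between -0.29 and -0.18 with any 1 mouse left out. Its relative Uhrf1, which guides DNMT1 to replicating DNA, was near the detection filter at 21 to 60 reads and had a log2 fold change of -0.29 (SE 0.349), which ran from -0.85 without ELS 1 to -0.031 without ELS 3. Among the 5 tested partners of the writers, 1 fold change was above 0 and 4 were below, with a median of -0.14. The 4 include Uhrf1, which passed the filter through the control mice alone (0.829 and 0.651 CPM in ELS 2 and ELS 3). The filter thus favoured its sign, which is no evidence of a direction.

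Of 8 tested genes that act beside the TET enzymes in demethylation and base excision repair, 2 had fold changes above 0 and 6 below, with a median of -0.11. Tdg, the glycosylase that removes oxidized methylcytosine, had a log2 fold change of -0.03, and Mbd4, a glycosylase for mismatched thymine at CpG, of -0.12, with a range of -0.22 (without Control 3) to -0.050 (without Control 2). Neil2, a glycosylase of oxidized bases, had one of -0.43 (edgeR unadjusted p = 0.0547) with no overlap between groups, at a low level of 2.66 ± 0.322 CPM in control and 1.97 ± 0.296 CPM in ELS mice (SD over 3 mice each).

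Among 10 other genes listed with the readers, 3 fold changes were above 0 (Mbd5, Cxxc4 and Cxxc5) and 7 below. The list also holds Cxxc1, and not all of its genes read methylated DNA. Mbd5 had a log2 fold change of 0.02 and Mbd6 of -0.15. Zfp57, a zinc-finger protein that keeps methylation at imprinted loci, had one of -0.31 (edgeR unadjusted p = 0.109). Without Control 2 the values were -0.053 for Zfp57 and -0.024 for Mbd6, and over the omission of each mouse they ran down to -0.44 (without Control 1) and -0.32 (without Control 3). The 12 NuRD partners of MBD2 and MBD3 split into 5 above and 7 below 0 with a median of -0.01, and Mta1 among them had a log2 fold change of -0.12 (edgeR unadjusted p = 0.116), or -0.072 without ELS 3. The 10 genes listed for the supply of the cofactors S-adenosylmethionine and 2-oxoglutarate split 5 to 5 with a median of -0.00. Not all of them make a cofactor, since the list also holds Ahcy, Ahcyl1 and Ahcyl2.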

How the data were processed

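RNA was taken from prefrontal cortex of 3 control and 3 ELS mice, and groups followed the titles in the labels. The authors trimmed reads, aligned them with STAR (2.7.1a in the submitters' processing notes, while the methods name another version) to the mouse genome (mm10, the UCSC name of GRCm38) and used HTSeq 0.9.1 to count those that mapped to a single place; the strand setting and annotation release are not given in the sources used here. The kit is named differently in the labels and in the methods, both times as a stranded one. The deposited values are raw read counts per gene symbol.

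Counts were scaled by the trimmed mean of M values (TMM) and tested with edgeR 4.0.16 (limma 3.58.1, R 4.3.3) by the quasi-likelihood F test on 13185 genes, with no covariate, and adjusted over all of them. Levels per mouse are TMM-scaled CPM, and logarithms used a count of 0.5 added to each value where ratios were taken. Ratios within mice were compared by the exact permutation test. Standard errors and 95% intervals come from the same fit. Positions, exon lengths and antisense overlaps come from GENCODE M21 (GRCm38), to which 89.2% of symbols matched, and promoter windows from RefSeq. The genes, lists and comparisons were chosen with earlier results of these data known. Of the other genes, a fixed set was always named, together with the gene of smallest p in each list. Some genes that this rule names are not reported here. DESeq2 1.42.0, limma-voom, other scalings and filters, a replicate block, covariates and omission of each mouse were tried as alternatives. The quasi-likelihood fit was tested on simulated data first, and the alternative fits were not. Replicates differed beyond counting noise (chi-square per degree of freedom 6.25 to 19.4 within groups), so none was a repeated library. Sequencing depth covers counting error only, and the p-values rest on the spread among 3 mice per group. In the edgeR fits the spread of each gene is moderated with that of the other genes tested. Their p-values, standard errors and intervals therefore borrow from those genes.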

Additional observations from a re-analysis of the deposited data

How the results depend on the processing

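None of the 9 genes and none of the other genes of the methylation machinery was called under any of the 22 alternatives. The number of genes called among all tested ones moved from 2 to 18 with DESeq2, 18 with DESeq2 without its filters, 28 by edgeR's likelihood ratio test, 4 when every gene of at least 1 read was kept, 32 with the striatal marker level as covariate, and 1 to 29 with any 1 mouse left out (29 without Control 3). Among alternatives chosen after seeing the data it was 29 with the transcript-length score as covariate and 27 without Control 3 and ELS 1. Equal replicate numbers name different mice: the same-number correlations of deviations were -0.164, 0.258 and -0.0355, and 2 of 6 mice correlated best with their own number. A fit with replicate block called 7 genes and 0 of the 9.

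Log2 fold changes near 0 changed sign. Mbd3 gave -0.0063 after thinning to the smallest library, -0.00030 with the striatal covariate and -0.0028 with the length covariate. Without Control 3 and ELS 1, Mbd1 gave -0.026, Mbd5 -0.018 and Tdg 0.0061. With any 1 mouse left out the ranges were -0.0036 to 0.18 for Tet1, -0.30 to 0.022 for Tet3, -0.13 to 0.10 for Gadd45b, -0.055 to 0.068 for Mbd1, -0.024 to 0.039 for Mbd3, -0.083 to 0.079 for Mbd5 and -0.051 to 0.0019 for Tdg. Log2 ratios then ran from -0.079 to 0.083 for Dnmt3a over Dnmt1, -0.29 to -0.10 for Tet3 over Tet1, -0.060 to 0.073 for Tet3 over Tet2, 0.01 to 0.10 for Mbd3 over Mbd2, -0.10 to -0.01 for Mbd2 over Mbd1 and 0.21 to 0.38 for Gadd45b over Gadd45g, and 7 to 8 of the 8 neighbouring pairs kept their order. The cause of these moves was not tested. With 3 mice per group, changes smaller than the intervals given could not be detected, and DNA methylation itself was not measured here.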
